A study of Mus musculus with 4 samples.

Results

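Nuclear genes supply most of the subunits of the mitochondrial respiratory chain, and the genes described here are those whose symbols name a nuclear-encoded subunit of complexes I, III, IV or V. They were chosen by symbol alone (Nduf, Uqcr, Cox4 to Cox8 and Atp5 symbols), with Cox7a1, Cox8b and pseudogene symbols left out. The rule took 76 of the 24421 genes in the matrices, namely 37 of complex I, 8 of complex III, 14 of complex IV and 17 of complex V. Of these, 74 passed the filter on low values, among 14106 genes tested. Cox7b2 and Cox8c, isoforms known from tissues other than fat, had 0 reads in every library and were not tested, where 3 reads would be worth 0.0345 to 0.0492 CPM.

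The tissue was epididymal adipose tissue, the large visceral fat depot of male mice, taken from wild-type C57BL/6J males. Control mice (Ctrl, 2 libraries) ate a high-fat diet (HFD) without interruption for 14 weeks, starting at 10 weeks of age. Weight-cycled mice (WC1, 2 libraries) started at 8 weeks of age and ate HFD for 8 weeks, standard diet for 2 weeks and HFD for a last 6 weeks. Both groups had therefore eaten HFD for 14 weeks in all and were 24 weeks old at the end, so that the groups differ in the break and in the age at which HFD began.

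Complex I takes electrons from NADH, complex III passes them from ubiquinol to cytochrome c, and complex IV gives them to oxygen. All of them pump protons, and complex V, the ATP synthase, uses the returning protons to make ATP. Each complex joins nuclear-encoded proteins to a few encoded by mitochondrial DNA, except that complex II, which pumps no protons, is wholly nuclear-encoded. White adipocytes hold fewer mitochondria than brown adipocytes but use them for fatty acid synthesis and re-esterification as well as for ATP. The mitochondrially encoded subunits are not analysed here.

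Promoters of respiratory chain genes are known for sites of nuclear respiratory factor 1 (NRF1) and of the ETS factor GABP. A promoter window of RefSeq (assembly GRCm38.p6, the build named mm10 in the submitters' processing notes) was matched to 64 of the 76 genes, which gave 70 windows. The 250 bases before each start were searched on both strands. The NRF1 letters GCGCATGCG stood in 6 of the 70 windows (8.57%) and in 476 of 32851 windows of all genes (1.45%). The first 4 sequences below hold them on both strands, overlapping, and are shown because they come from 3 complexes and include Atp5g2, which passed the test below. The 2 windows with a match on 1 strand belong to Ndufa8 and Atp5l. The fifth sequence holds the cAMP response element letters TGACGTCA before Uqcrfs1, and the last the ETS letters CCGGAAGT, read from the opposite strand, before Uqcrh. These are the genes of complex III furthest above and below 0 in the comparison. Capitals mark the motif, and all are printed 5′ to 3′ on the strand of the gene.
Ndufa11 (complex I, chr17:56717672-56717741, plus strand): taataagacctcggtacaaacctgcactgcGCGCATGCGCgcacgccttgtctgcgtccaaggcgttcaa
Cox6a1 (complex IV, chr5:115349081-115349150, minus strand): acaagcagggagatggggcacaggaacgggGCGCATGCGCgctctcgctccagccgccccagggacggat
Atp5k (complex V, chr5:108434410-108434479, minus strand): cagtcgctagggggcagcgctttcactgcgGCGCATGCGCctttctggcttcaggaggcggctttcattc
Atp5g2 (complex V, chr15:102671050-102671119, minus strand): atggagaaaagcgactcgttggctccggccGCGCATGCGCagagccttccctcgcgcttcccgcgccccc
Uqcrfs1 (complex III, chr13:30545317-30545375, minus strand): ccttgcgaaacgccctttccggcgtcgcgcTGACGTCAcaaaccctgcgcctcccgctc
Uqcrh (complex III, chr4:116075071-116075111, minus strand): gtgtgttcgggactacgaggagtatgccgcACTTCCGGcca

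The cAMP response element letters stood in 4 of the 70 windows (5.71%, against 1.55% of all windows) and the ETS letters in 3 (4.29%, against 2.88%). The YY1 letters AAGATGGCG stood in 2 (2.86%, against 0.606%) and the GC box letters GGGGCGGGG in 9 (12.9%, against 10.4%). None of the 5 motifs contains another of them. A match is a run of letters and was not tested as a binding site. The 4 genes shown with the NRF1 letters had log2 fold changes of -0.095 (Ndufa11), 0.11 (Cox6a1), 0.022 (Atp5k) and -0.33 (Atp5g2), so that they lay on both sides of 0.

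The deposited CPM values (reads relative to library size, scaled per library by the authors) rested on 61465029 to 90965297 reads a library. Adipocyte markers were higher in WC1, with 12 of 12 above 0, 8 of them past the test below and summed CPM of 20561 and 21742 in Ctrl against 31009 and 37316 in WC1. Macrophage markers were lower, with 12 of 12 below 0, 6 past the test and summed CPM of 14651 and 13369 in Ctrl against 8935 and 6171 in WC1. Endothelial markers were higher (6 of 8 called, 450 to 497 against 880 to 1125 summed CPM) and fibroblast markers had 6 of 8 below 0, 3 of them called, and overlapping groups for 3 (9534 to 9873 against 6815 to 8835 summed CPM). Brown adipocyte markers stood at 28.2 to 28.3 summed CPM in Ctrl against 44.7 in both WC1 libraries, with Ucp1, the brown fat uncoupling protein, at 0.115 to 0.263 CPM and Zic1 at 0. Skeletal muscle markers summed to 12.9 and 15.8 CPM in Ctrl against 29.0 and 29.6 CPM in WC1 (2 of 6 tested were called higher). B cell markers summed to 12.1 to 14.2 CPM in Ctrl against 19.4 to 39.1 CPM in WC1. Of 11 epididymis markers 8 were at 0 in every library. Their sum was 0.351 and 0.299 CPM in Ctrl against 3.36 CPM in the first WC1 library and 0.127 CPM in the second. The sums of T and NK cell and of mesothelial markers overlapped between the groups. In bulk tissue, fewer cells of a type and less RNA per cell cannot be told apart, and the part of these shifts in the respiratory chain values was not tested.

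Against this background the respiratory chain genes stood close together in both groups. The 74 tested genes took 0.820% and 0.809% of the reads of the Ctrl libraries and 0.865% and 0.906% of those of the WC1 libraries. Their log2 fold changes (WC1 minus Ctrl, on log2(CPM + 1)) ran from -0.41 to 0.61 with a median of -0.026 (0.11 with TPM), beside a median of -0.019 over all genes tested (0.10 with TPM). Of the 74 genes 35 stood above 0 and 39 below (47.2% of all genes stood above), and the middle 50% lay between -0.14 and 0.11. The median size of the change, regardless of sign, was 0.126 on the log2 scale, against 0.209 over all genes tested. Replicates of the same group also differed less, by a median of 0.061 in Ctrl and 0.048 in WC1, against 0.088 and 0.136 over all genes.

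The groups were compared with limma, with p adjusted over all 14106 genes. The labels do not say whether the libraries are separate mice or pools, so p measures only the spread between these libraries. Of the 74 genes, 1 passed an adjusted p of 0.05 as higher in WC1 (Ndufb3), where 10.2% of all genes did, and 3 as lower (Ndufa2, Cox5a and Atp5g2), where 7.71% did. In either direction 17.9% of all genes passed. At an unadjusted p of 0.05 the counts were 9 higher and 11 lower, where 18.9% of all genes passed in each direction and 37.8% in either. edgeR on the recovered reads called 1 higher and 1 lower (10.5% and 7.14% of all genes), and DESeq2 6 and 7 (15.1% and 12.3%). Without the first or the second Ctrl library limma called 0 in either direction (2 higher and 1 lower, and 2 and 6, at an unadjusted p of 0.05), where at most 0.0425% of all genes were called in each direction. Without the first WC1 library it called 9 higher and 10 lower, where 17.2% and 19.5% of all genes were called, and without the second 1 higher and 3 lower, where 10.1% and 8.73% were. The change had a 95% interval wholly within 0.5 of 0 on the log2 scale for 61 of the 74 genes (49.5% of all genes), and Ndufb3 alone lay beyond 0.5, as did 18.7% of all genes tested.

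The groups overlapped for 19 of the 74 genes. Of those without overlap 27 were higher in WC1 (32.7% of all genes were) and 28 lower (36.6% of all genes were), and 69.3% of all genes had no overlap in either direction. With 2 libraries a group an exact permutation test of 1 gene cannot give a p below 0.333, so that no such test was made.

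**Figure D1:**
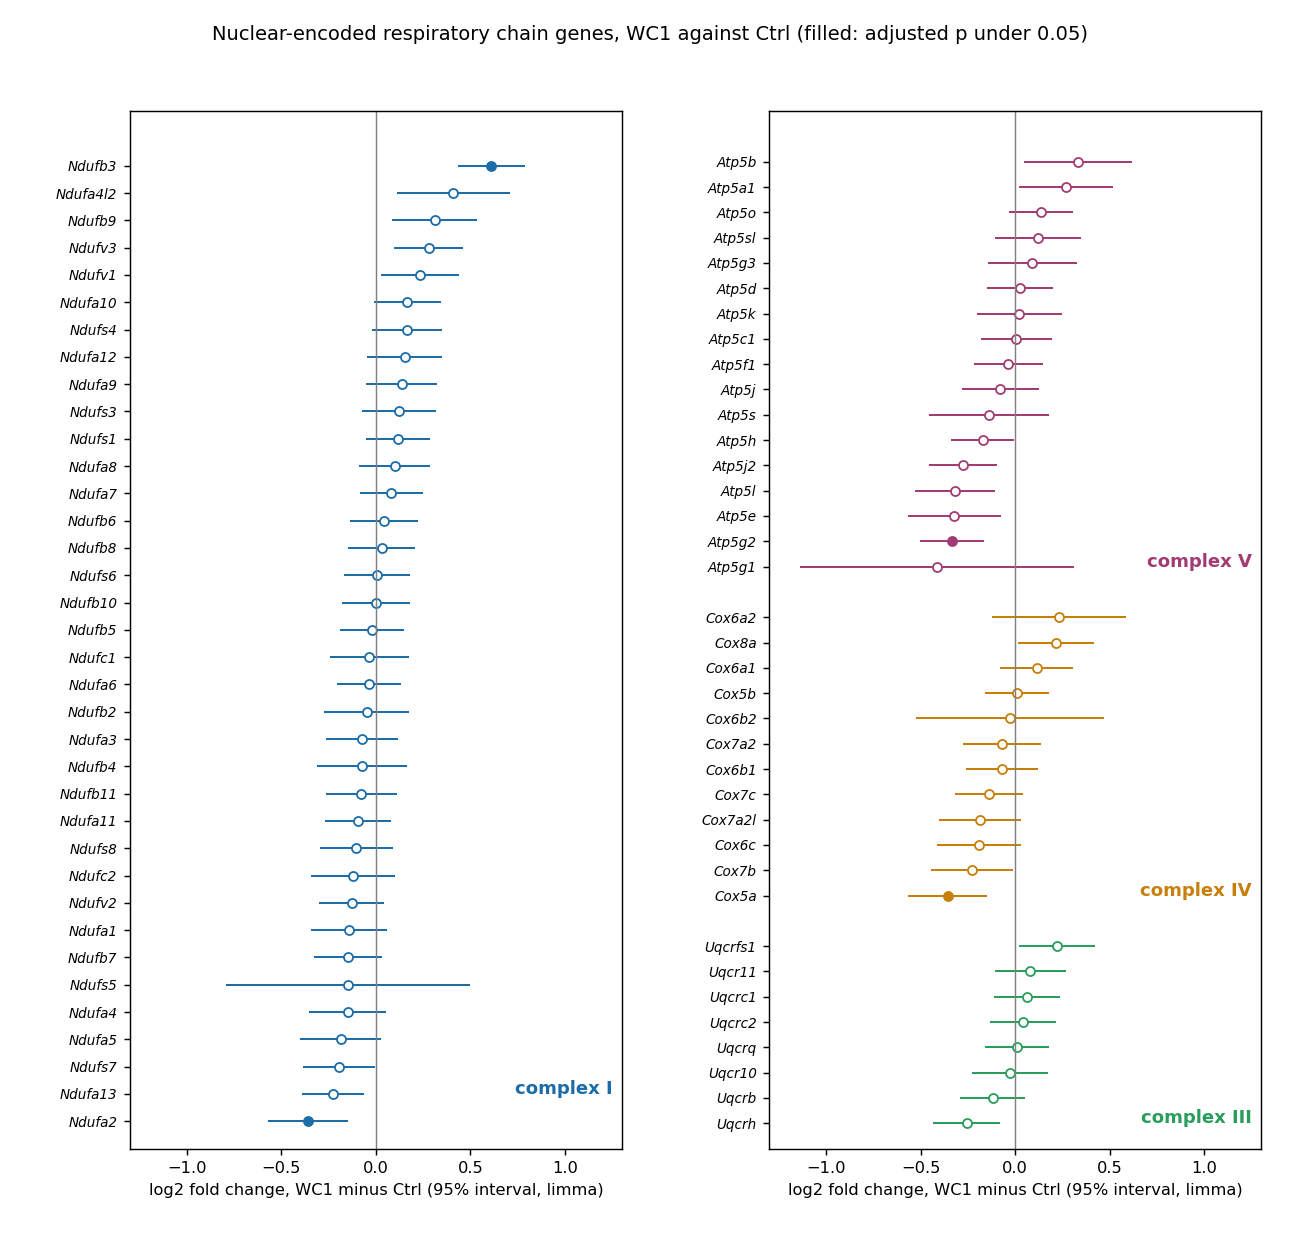
Log2 fold change (WC1 minus Ctrl, horizontal axis) of the tested genes, grouped by complex, without 1 gene that is not reported here, with 95% intervals from limma and filled points for an adjusted p under 0.05. Most intervals cross 0, and the 4 filled points are Ndufb3 (0.61), Ndufa2 (-0.36), Cox5a (-0.36) and Atp5g2 (-0.33).

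Complex I, with 37 genes, had a median log2 fold change of -0.021, 18 genes above 0 and 19 below. Its summed CPM was 2538 and 2504 in Ctrl against 2541 and 2615 in WC1, so that 1 WC1 library stood barely above Ctrl and the other further above. Its median was 0.12 with TPM, 0.011 without the first Ctrl library and 0.018 without the first WC1 library. Of its genes 1 rose and 1 fell by the limma test, where 10.2% and 7.71% of all genes did.

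Ndufb3, an accessory subunit of the membrane arm, was read at 69.5 and 72.5 CPM in Ctrl against 107 and 111 CPM in WC1. Both WC1 libraries stood well above both Ctrl libraries. The log2 fold change was 0.61 ± 0.067 (SE, n = 2 per group, limma adjusted p = 0.014), and it ran from 0.58 to 0.81 over 16 other ways of processing. Among these its call was lost only without either Ctrl library, where 2 and 6 of all genes were called higher and 4 and 6 lower. Of its transcript's 50-base stretches 6.72% also occur in another annotated transcript, that of Gm45930.

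Ndufa2, an accessory subunit of the peripheral arm, was read at 71.9 and 66.7 CPM in Ctrl against 51.7 and 56.0 CPM in WC1. Both WC1 libraries were lower than either Ctrl library. It fell by 0.36 on the log2 scale (SE 0.080, n = 2 per group, limma adjusted p = 0.043). The value was negative under every alternative (-0.41 to -0.18), yet 9 of 16 alternatives lost the call. Ndufa2 overlaps Tmco6 on the opposite strand, under a strand setting not given in the sources used here.

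The nuclear catalytic core genes of complex I carry its flavin and its iron-sulfur clusters. None of those described here passed the adjusted limma threshold (17.9% of all genes did in either direction). At an unadjusted p of 0.05, 1 was higher and 1 lower (18.9% of all genes in each direction). None was called in either direction by edgeR (17.6% of all genes) or DESeq2 (27.4%). Ndufv1, which binds NADH through its flavin, stood at 83.9 and 83.5 CPM in Ctrl against 93.6 and 104 CPM in WC1 (log2 0.23, limma adjusted p = 0.098). Ndufs7, which hands electrons to ubiquinone through the last cluster, stood at 57.1 and 56.0 CPM in Ctrl against 47.6 and 51.2 CPM in WC1 (log2 -0.19, limma adjusted p = 0.122). The groups did not overlap for either gene, and the signs were opposite.

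Among the other core genes, Ndufs1 and Ndufs3, which lie in the arm between the flavin and the membrane, had log2 values of 0.12 each. Ndufv2, the partner of Ndufv1, had -0.13, and Ndufs8, which holds iron-sulfur clusters beside Ndufs7, had -0.10. With the TPM matrix Ndufv2 and Ndufs8 turned positive, beside an all-gene median that itself moved from -0.019 to 0.10. The median was 0.082 over 9 accessory genes of the peripheral arm (0.22 with TPM), against -0.049 over 19 accessory genes of the membrane arm (0.089 with TPM).

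Ndufa4 and Ndufa4l2 are a pair of related genes, named for complex I, of which Ndufa4 is now placed with complex IV and Ndufa4l2 is known as a gene induced by low oxygen. Ndufa4l2 stood at 9.20 and 9.62 CPM in Ctrl against 11.8 and 13.9 CPM in WC1 (log2 0.41 ± 0.114 SE, limma adjusted p = 0.066). DESeq2 and limma on TPM called it higher. Ndufa4 stood at 170.1 and 158 CPM in Ctrl against 143 and 152 CPM in WC1 (log2 -0.15, limma adjusted p = 0.226). Per length, in TPM, Ndufa4l2 made up 2.69% and 3.02% of the pair in Ctrl against 4.04% and 4.45% in WC1, so that the minor partner took the larger share in both WC1 libraries.

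Ndufv3 and Ndufb9 of complex I were named after their values were seen, because their adjusted p lay near the threshold. Ndufv3, an accessory gene beside the flavin, had a log2 value of 0.28 (limma adjusted p = 0.052), and Ndufb9 of the membrane arm had 0.31 (limma adjusted p = 0.064). DESeq2 called both higher, as did limma with the trend of length and level over all genes removed. Limma also called Ndufv3 with median-of-ratios scaling, plain CPM, quantile normalization and libraries of equal number paired, and Ndufb9 on TPM. Ndufa13, also known as Grim19 and the second lowest gene of complex I, had -0.23 (limma adjusted p = 0.065), so that these genes lay on both sides of 0. No alternative called Ndufa13. Ndufs5 was listed at 2.80 to 4.96 CPM only, and 21.7% of its 50-base stretches are shared with BC002163, a related gene read at 59.8 to 67.1 CPM. Reads could be split between them, and the value of Ndufs5 is uncertain. The same holds for Ndufb9, with 23.4% shared and Gm49356 on the same strand, and for Ndufs3, with 35.8% shared.

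Complex III, with 8 genes, had a median log2 fold change of 0.026, with 5 genes above 0 and 3 below. Without the second Ctrl library the median was 0.0039, and with TPM it was 0.17. Its summed CPM overlapped between the groups, at 955 and 936 in Ctrl against 929 and 949.9 in WC1. None of its genes passed the adjusted threshold by limma or edgeR, where 17.9% and 17.6% of all genes did in either direction. By DESeq2 1 did, Uqcrh as lower, where 12.3% of all genes were lower. At an unadjusted limma p of 0.05, 1 was higher and 1 lower (18.9% of all genes in each direction).

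Uqcrfs1, the Rieske iron-sulfur protein that takes electrons from ubiquinol, stood at 88.3 and 83.7 CPM in Ctrl against 96.4 and 105 CPM in WC1 (log2 0.22 ± 0.076 SE, limma adjusted p = 0.104). Both WC1 libraries stood above both Ctrl libraries. Uqcrh, the acidic hinge protein that meets cytochrome c, stood at 172 and 165 CPM in Ctrl against 141 in both WC1 libraries (log2 -0.26 ± 0.067 SE, limma adjusted p = 0.059). The promoters of Uqcrfs1 and Uqcrh are the last pair printed above.

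The core proteins Uqcrc1 and Uqcrc2, which form the matrix side of the dimer, had log2 values of 0.063 and 0.042, with limma adjusted p of 0.524 and 0.668. The accessory genes Uqcr11 and Uqcrb had 0.081 and -0.12. Uqcrb turned positive with TPM (0.021) and with the trend of length and level removed (0.093). Of its 50-base stretches 43.2% occur in other annotated transcripts, which makes the value of Uqcrb uncertain. Uqcrq and Uqcr10 had 0.0095 and -0.027, and for both the groups overlapped.

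Complex IV, with 12 tested genes, had the lowest of the medians, -0.069, with 4 genes above 0 and 8 below. Its summed CPM was 1618 and 1572 in Ctrl against 1549 and 1530 in WC1, so that both WC1 libraries stood below. With the TPM matrix the median was 0.054, still under the all-gene median of 0.10. With the trend of length and level removed it was 0.097 beside an all-gene median of -0.026. Without the second Ctrl library it was -0.16.

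Cox5a, a nuclear subunit on the matrix side of the enzyme, was read at 102 and 91.7 CPM in Ctrl against 74.1 and 76.4 CPM in WC1. Both WC1 libraries were lower than either Ctrl library, which themselves differed. It fell by 0.36 on the log2 scale (SE 0.079, n = 2 per group, limma adjusted p = 0.042). It was negative under all 16 alternatives (-0.43 to -0.17), of which 8 lost the call, with adjusted p from 0.014 to 0.286. Cox5b, its neighbour on the matrix side, ran from 149 to 150.1 CPM over the 4 libraries, with 21.8% of its 50-base stretches shared.

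Across the 5 accessory genes of complex IV the median was -0.19 (-0.053 with TPM, where Cox7c turned positive), with Cox5a, Cox7b, Cox6c and Cox7c below 0 and Cox5b at 0.0085. Cox7b, a small membrane subunit, stood at 132 and 121 CPM in Ctrl against 112 and 103 CPM in WC1 (log2 -0.23, limma adjusted p = 0.116). Cox7a2l, which joins complex III to complex IV in supercomplexes and is known to be shortened in the C57BL/6 strain, stood at 194 CPM in both Ctrl libraries and at 180.2 and 161 CPM in WC1 (log2 -0.18, limma adjusted p = 0.172). For Cox7b and Cox7a2l the groups did not overlap, and neither passed the adjusted threshold.

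The widely used isoforms stood far above the tissue-restricted ones in level. Cox8a, the general form of subunit VIII, stood at 219 and 221 CPM in Ctrl against 247 and 266 CPM in WC1 (log2 0.22, limma adjusted p = 0.109). Cox6a1 stood at 201 to 210.1 CPM in Ctrl against 217 to 228 CPM in WC1 (log2 0.11). Its heart and muscle form Cox6a2 was read at only 1.5 to 2.2 CPM (log2 0.23, or 0.39 by edgeR and by DESeq2). Per length, in TPM, Cox6a2 made up 0.576% to 0.778% of the pair, so that the general form carried nearly all of the signal in every library.

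Cox6b1 and its testis form Cox6b2 had log2 values of -0.070 and -0.026, and Cox6b2 made up 0.414% to 0.680% of the pair in TPM. Cox7a2, the general form of subunit VIIa, had -0.068, with overlapping groups. Cox6b1 and Cox7a2 turned positive with the TPM matrix, with plain CPM and with the trend of length and level removed. Cox7a2 also did so without the first Ctrl library, and neither was called in any setting. Cox7a1, the muscle and heart partner of Cox7a2, which the rule leaves out, made up 4.67% to 5.34% of its pair in TPM, and Cox8b, the muscle and brown fat form of subunit VIII, 2.54% to 3.41%. The part of the higher skeletal muscle markers in the values of these muscle forms was not tested.

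**Figure D2:**
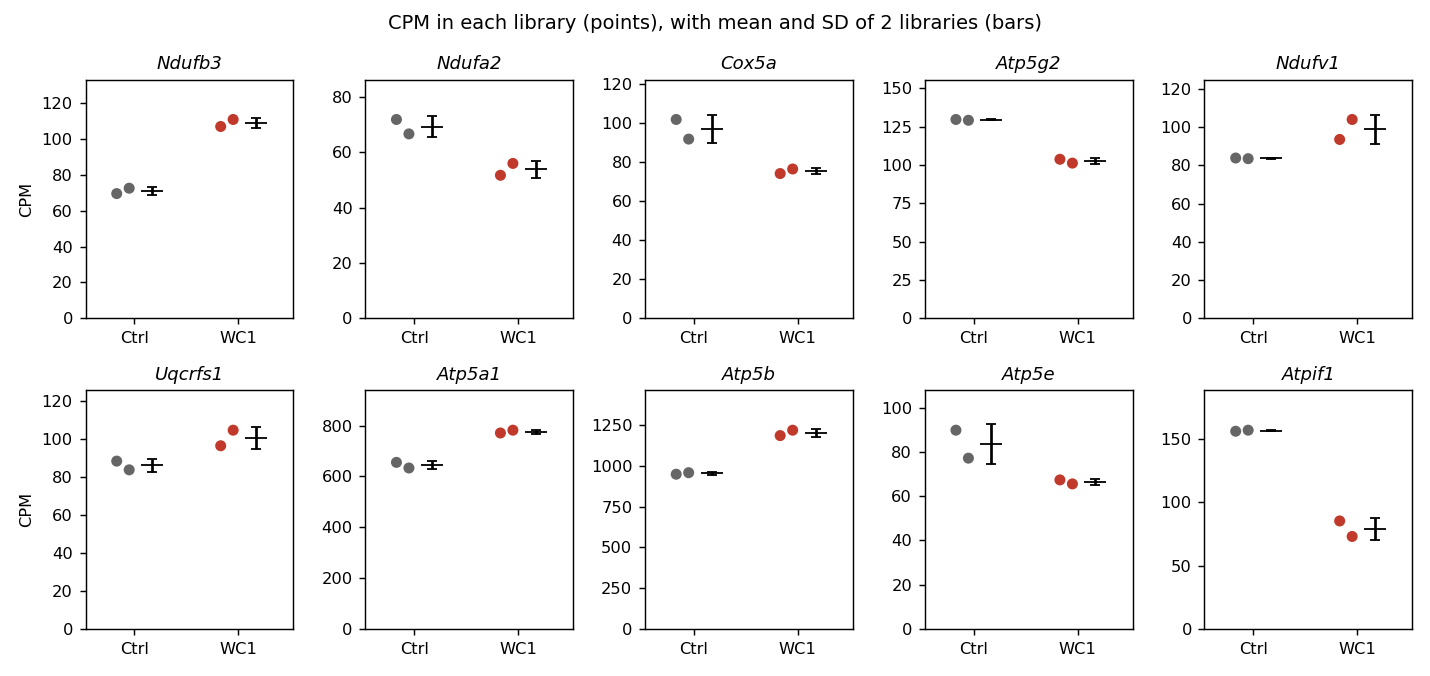
CPM (vertical axes, each from 0) in each library for the 4 genes that passed the test, 5 other respiratory chain genes and the ATP synthase inhibitor Atpif1, with the mean and SD of 2 libraries beside the points. The WC1 points lie above the Ctrl points for Ndufb3 (107 and 111 CPM against 69.5 and 72.5), Ndufv1, Uqcrfs1, Atp5a1 and Atp5b, and below them for Ndufa2, Cox5a, Atp5g2, Atp5e and Atpif1.

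Complex V, with 17 genes, had a median log2 fold change of -0.036 (0.10 with TPM, -0.014 without the first Ctrl library), with 8 genes above 0 and 9 below, and the largest log2 ratio of summed level among the 4 complexes. Its summed CPM was 3485 and 3447 in Ctrl against 3717 and 3753 in WC1, a log2 ratio of 0.11. Without the 2 largest genes, Atp5a1 and Atp5b, the log2 ratio was -0.089, so that the sum was higher in WC1 with these genes and lower without them.

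Atp5b, the catalytic beta subunit of the F1 head, was the most abundant of all 76 genes per length, at a mean of 1166 TPM. It stood at 949.6 and 959 CPM in Ctrl against 1187 and 1220 CPM in WC1 (log2 0.33 ± 0.109 SE, limma adjusted p = 0.093). Atp5a1, the alpha subunit that alternates with beta around the head, stood at 655 and 633 CPM in Ctrl against 771 and 782 CPM in WC1 (log2 0.27 ± 0.094 SE, limma adjusted p = 0.107). For both genes the WC1 libraries stood above both Ctrl libraries, and the limma threshold was not passed. DESeq2 called both higher, as did limma on TPM and limma without the first WC1 library.

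The 3 other subunits of the F1 head did not share these values. Atp5c1, the rotating gamma subunit, and Atp5d, the delta subunit at its foot, had log2 values of 0.0072 and 0.026. Atp5e, the small epsilon subunit, stood at 89.8 and 77.2 CPM in Ctrl against 67.3 and 65.5 CPM in WC1 (log2 -0.32 ± 0.093 SE, limma adjusted p = 0.073). DESeq2 called it lower, as did limma with libraries of equal number paired. Its Ctrl libraries differed by more than its WC1 libraries did, and they did not overlap them.

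Atp5g1, Atp5g2 and Atp5g3 encode the same mature c subunit, the membrane ring that the protons turn. Atp5g2 was read at 129.8 and 129 CPM in Ctrl against 104 and 101 CPM in WC1. It fell by 0.33 on the log2 scale (SE 0.063, n = 2 per group, limma adjusted p = 0.031) and kept its call in 12 of 16 alternatives. Over all 16 its value lay between -0.35 and -0.14. Of its 50-base stretches 38.3% occur in other annotated transcripts, first those of Gm10175, Gm10231 and Mir688 (the last lies within Atp5g2 on the same strand), so that part of its reads could be split with them. Its promoter holds the NRF1 letters printed above.

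Atp5g1 stood at 48.3 and 71.7 CPM in Ctrl against 55.4 and 34.8 CPM in WC1, so that the groups overlapped (log2 -0.41 ± 0.280 SE, limma adjusted p = 0.333). Its value was -0.74 without the first WC1 library and -0.086 without the second. Atp5g3 stood at 167 and 164 CPM in Ctrl against 165 and 188 CPM in WC1 (log2 0.091, limma adjusted p = 0.497). Per length the 3 genes summed to 944 and 999 TPM in Ctrl against 957 and 995 TPM in WC1. Within this sum Atp5g2 made up 40.6% and 38.6% in Ctrl against 34.9% and 33.8% in WC1, while Atp5g3 made up 47.1% and 44.1% in Ctrl against 50% and 56.7% in WC1.

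The summed c subunit level overlapped between the groups while the shares of Atp5g2 and Atp5g3 did not. The share of Atp5g1 was 12.2% and 17.3% in Ctrl against 15.1% and 9.41% in WC1, and it overlapped.

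Among the membrane accessory genes of complex V, Atp5l and Atp5j2 were named after their values were seen. Atp5l, subunit g of the dimer interface, stood at 182 and 165 CPM in Ctrl against 141 and 136 CPM in WC1 (log2 -0.32, limma adjusted p = 0.053). Atp5j2, subunit f, had -0.28 (limma adjusted p = 0.052), and Atp5k, subunit e, which carries the NRF1 letters, had 0.022. DESeq2 called Atp5l and Atp5j2 lower, as did limma for Atp5l with libraries of equal number paired. Of the 50-base stretches of Atp5l 68.5% occur in other annotated transcripts (Gm10221, Atp5l2-ps and Gm4853 first), the highest share among the genes with such a value, so that its value is uncertain. The peripheral stalk genes Atp5o, Atp5f1, Atp5j and Atp5h ran from 0.14 to -0.17, and Atp5o, Atp5f1 and Atp5h share 28.2%, 22.5% and 36.9% of their stretches with other transcripts.

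**Figure D3:**
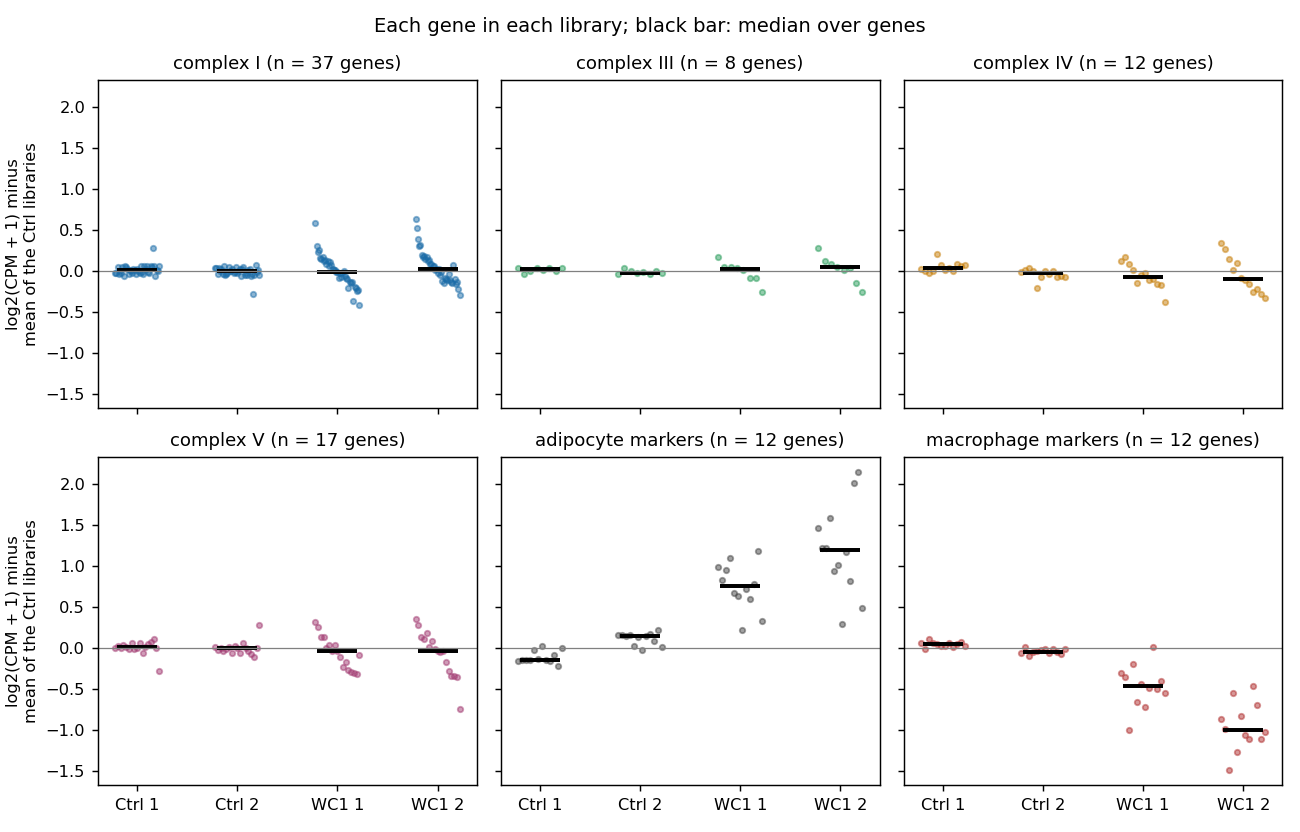
Each gene in each library as log2(CPM + 1) minus the mean of the Ctrl libraries (vertical axis), for the 4 complexes and for the adipocyte and macrophage markers, with a black bar at the median over genes. The bars of the complexes lie between -0.099 and 0.041, whereas those of the adipocyte markers reach 0.75 and 1.19 and those of the macrophage markers -0.46 and -1.01 in the WC1 libraries.

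The 4 complexes were compared by their medians in each library, as log2(CPM + 1) relative to the Ctrl mean. Complex IV stood at 0.028 and -0.028 in Ctrl against -0.077 and -0.099 in WC1. Complex V stood at 0.0053 and -0.0053 in Ctrl against -0.044 and -0.037 in WC1, and complex I at 0.0055 and -0.0055 in Ctrl against -0.012 and 0.018 in WC1. Complex III stood at 0.022 and -0.022 in Ctrl against 0.023 and 0.041 in WC1.

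The WC1 libraries were below both Ctrl libraries for complexes IV and V, and they lay on either side of them for complex I. For complex III they were above, the nearer of them barely. Complex III had the highest median in 17 of 17 alternatives. Complex IV was lowest in 16 of 17, the exception being the removal of the trend of length and level, where complex V was lowest. The highest and lowest complex differed by 0.064 to 0.16 on the log2 scale over the 17. No test of the difference between complexes was made, since genes of 1 complex are not replicates. Complex IV had a median of -0.14 when Ndufa4 was placed with it and paralogues, factors and tissue-restricted isoforms (here Cox6a2 and Cox6b2) were left out.

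The levels themselves differed more between complexes than between groups. Per length, the median gene of complex I stood at 171 TPM, that of complex III at 373 TPM, that of complex V at 399 TPM and that of complex IV at 435 TPM over the 4 libraries. Ranges overlapped widely, from 14.8 to 638 TPM in complex I, 142 to 571 TPM in complex III, 4.64 to 886 TPM in complex IV and 10.4 to 1166 TPM in complex V. The lowest tested genes were Atp5s, Atp5sl, Ndufs5 and the restricted forms Cox6a2 and Cox6b2. Atp5s and Atp5sl, now named Dmac2l and Dmac2 in RefSeq, count with complex V by symbol only and are not stable subunits of the enzyme. After Atp5b the most abundant genes were Cox8a at 886 TPM and Cox6b1 at 857 TPM.

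These genes are short, with a median transcript length of 0.231 of that of the median tested gene, and fold change moved with length in the whole matrix. The 345 tested genes shorter than the median respiratory chain gene had a median log2 value of -0.17, with 103 above 0 and 242 below, against -0.016 over the longer ones. Among the 74 genes the 37 longer ones had a median of 0.042 and the 37 shorter ones -0.049. Pearson's r of fold change with log length was 0.27 over the 74 genes (rho = 0.30) and 0.12 over 14078 genes with a length. It was 0.59 over the 17 complex V genes and -0.34 over the 12 of complex IV. These are descriptions across genes that share the same 4 libraries. The part of length in these results was not tested, and RNA quality was not measured here.

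**Figure D4:**
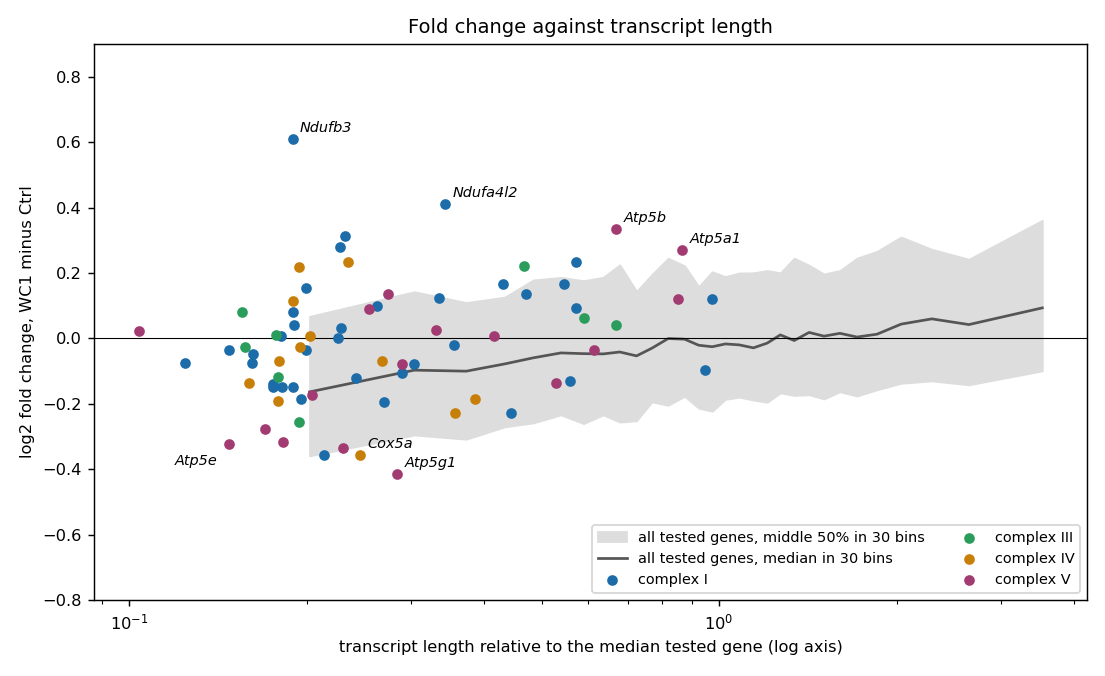
Log2 fold change (vertical axis) against transcript length relative to the median tested gene (horizontal log axis) for the 74 genes, coloured by complex, over the median and middle 50% of all tested genes in 30 bins of length. The line for all genes lies below 0 at the left, where most of the points are, and Ndufb3 (0.61), Ndufa4l2 (0.41) and Atp5b (0.33) are the highest of the 74 points.

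The direction of the small shift depended on the scale. With plain CPM, which divides by the library total and leaves length as it is, the median of the 74 genes was 0.043 beside 0.047 over all genes, and 44 of the 74 stood above 0. In TPM, where length is divided out and each library is rescaled, the all-gene median moved from -0.019 to 0.10 and the median of the 74 genes from -0.026 to 0.11, which leaves them 0.0067 above all genes. With TPM 9 genes were called higher by limma, where 14.6% of all genes were, and 0 lower, where 4.13% were (2 lower at an unadjusted p of 0.05, and 3, 1 and 7 lower by limma, edgeR and DESeq2 on CPM or reads). The 9 were Ndufb3, Ndufb9, Ndufa10, Ndufa4l2, Ndufs4, Ndufv1, Uqcrfs1, Atp5a1 and Atp5b. With the trend of length and level over all genes removed, the median of the 74 was 0.13 beside -0.026 over all genes, 57 of them stood above 0 (46.1% of all genes did), and 8 were called higher, where 9.55% of all genes were, and 0 lower, where 7.3% were (0 lower also at an unadjusted p of 0.05).

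Of the other genes of the respiratory chain, 9 that the symbol rule does not take were tested, of which 1 rose and 2 fell by limma, where 10.2% and 7.71% of all genes did. edgeR called the same numbers (10.5% and 7.14% of all genes), and DESeq2 called 3 and 2 (15.1% and 12.3%). At an unadjusted limma p of 0.05, 3 and 2 passed (18.9% of all genes in each direction). Atpif1, the small protein that binds the F1 head and blocks ATP hydrolysis, was read at 156 and 157 CPM in Ctrl against 85.2 and 72.9 CPM in WC1. Both WC1 libraries stood far below both Ctrl libraries. It fell by 0.98 on the log2 scale (SE 0.094, n = 2 per group, limma adjusted p = 0.013), and the call was lost only without either Ctrl library. In TPM it stood at 20.7% and 20.6% of Atp5b in Ctrl against 9.04% and 7.53% in WC1, so that the inhibitor transcript was the smaller fraction of the Atp5b transcript in both WC1 libraries.

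Cox4i2, the lung form of subunit IV that is known to respond to low oxygen, was read at 1.40 and 1.26 CPM in Ctrl against 3.15 and 3.34 CPM in WC1. It rose by 0.86 on the log2 scale (SE 0.119, limma adjusted p = 0.020) and remained a minor form, at 0.413% and 0.386% of the pair with Cox4i1 in Ctrl against 0.960% and 1.01% in WC1, per length. Cox4i1 itself had -0.027. 2010107E04Rik, a small proteolipid of the ATP synthase, fell by 0.41 (SE 0.082, limma adjusted p = 0.034). It lost the call in 5 of 16 alternatives, over which its value ran from -0.49 to -0.21.

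Complex II and cytochrome c, which carry electrons into and out of complex III, had 5 genes tested and 0 called by limma or edgeR (17.9% and 17.6% of all genes were called in either direction). DESeq2 called 2 higher (15.1% of all genes), the same number as at an unadjusted limma p of 0.05 (18.9% of all genes). Sdha, the flavoprotein of complex II, had 0.27 (limma adjusted p = 0.063) and cytochrome c, Cycs, had 0.27 (limma adjusted p = 0.083). The adenine nucleotide and phosphate carriers had 3 genes tested and 0 called by limma, edgeR or DESeq2, with 1 lower at an unadjusted limma p of 0.05.

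Of 46 assembly factors tested, 4 rose and 0 fell by the adjusted limma test, where 10.2% and 7.71% of all genes did. At an unadjusted p of 0.05, 10 were higher and 5 lower (18.9% of all genes in each direction). edgeR called 5 higher and 0 lower (10.5% and 7.14% of all genes), and DESeq2 6 and 2 (15.1% and 12.3%). Their median was 0.093 beside -0.019 over all genes, with 28 above 0 (47.2% of all genes). With TPM their median was 0.22 beside 0.10 over all genes, and 36 stood above 0, as did 9155 of 14106 genes. Limma on TPM called 9 higher, where 14.6% of all genes were. Foxred1 and Acad9, which help to build complex I, rose by 0.50 and 0.38 (limma adjusted p = 0.025 and 0.031). Atpaf2, a chaperone of the F1 alpha subunit, rose from 41.8 and 46.7 CPM in Ctrl to 58.0 and 63.0 CPM in WC1 (log2 0.44, limma adjusted p = 0.035).

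Of 18 regulators of mitochondrial gene expression, 1 rose and 0 fell by limma, where 10.2% and 7.71% of all genes did. At an unadjusted p of 0.05, 3 were higher and 1 lower (18.9% of all genes in each direction). edgeR and DESeq2 each called 1 higher and 0 lower (10.5% and 7.14% of all genes by edgeR, 15.1% and 12.3% by DESeq2). Esrrg, an orphan nuclear receptor of oxidative genes, was read at 0.69 and 1.0 CPM in Ctrl against 2.08 and 2.18 CPM in WC1 (log2 0.77 ± 0.142 SE, limma adjusted p = 0.030). The log2(CPM + 1) scale understates so low a gene, and edgeR and DESeq2 on reads each gave 1.35. Nrf1, whose motif is printed above, had -0.052, Gabpa of the ETS pair had 0.14, and Tfam, which packages mitochondrial DNA, had -0.15, none of them past the adjusted limma threshold. The coactivator Ppargc1a was read at 1.43 and 1.75 CPM in Ctrl against 3.15 and 2.13 CPM in WC1 (log2 0.48, limma adjusted p = 0.126). For this gene edgeR and DESeq2 each gave 0.74.

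Of 16 general mitochondrial genes, 1 rose and 1 fell by limma, where 10.2% and 7.71% of all genes did, with a median of -0.058 (0.075 with TPM). At an unadjusted p of 0.05 the counts were 3 higher and 4 lower (18.9% of all genes in each direction). edgeR called 1 and 0 (10.5% and 7.14% of all genes), and DESeq2 2 and 3 (15.1% and 12.3%). Cs, the citrate synthase used as a measure of mitochondrial content, rose from 316 and 324 CPM in Ctrl to 394 and 408 CPM in WC1 (log2 0.32, limma adjusted p = 0.049), and lost the call in 3 of 16 alternatives. Hspe1, the small partner of the matrix chaperonin, fell by 0.26 (limma adjusted p = 0.049), and lost the call in 11 of 16 alternatives.

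**Figure D5:**
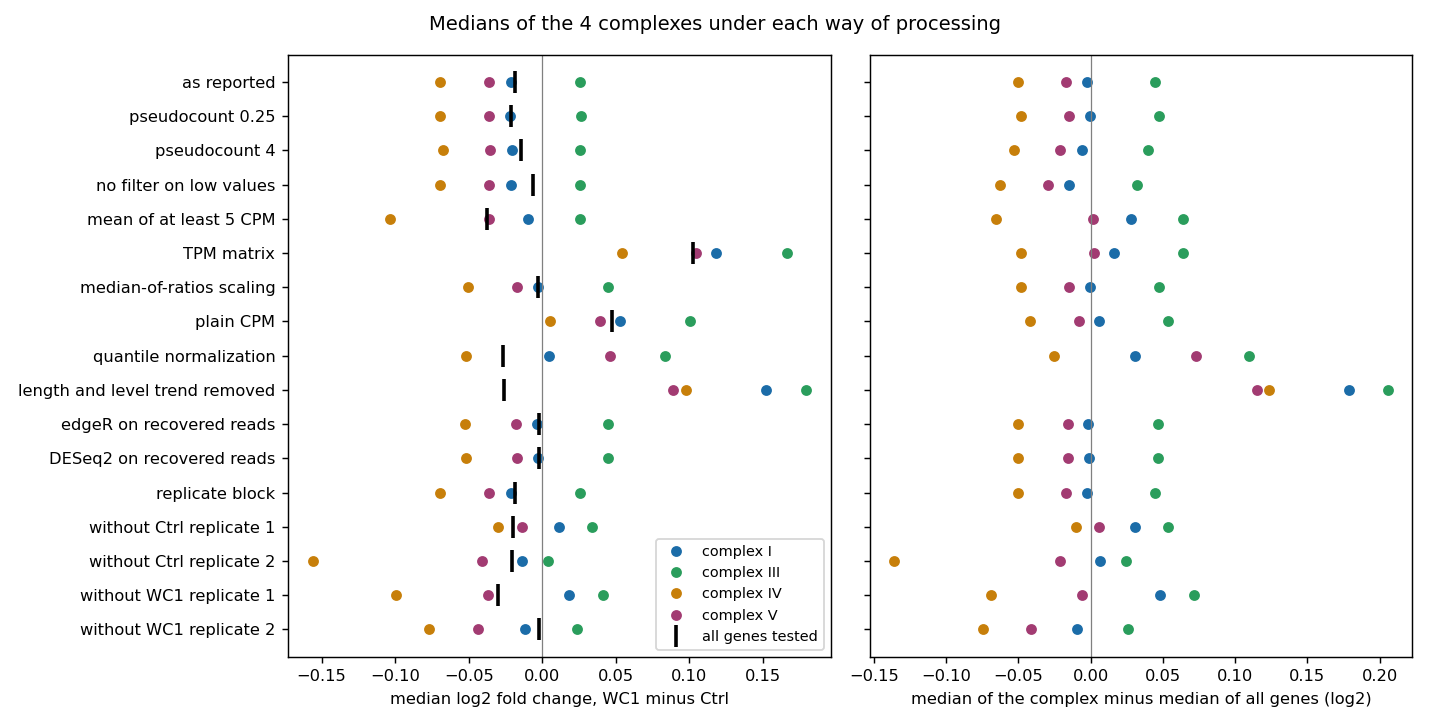
Median log2 fold change of each complex and of all genes tested (left) and the difference between them (right), under the reported processing and 16 alternatives (vertical axis). On the left the dots and the black mark of all genes both move up with TPM, the dots from -0.069 to 0.026 as reported to 0.054 to 0.17. With the trend of length and level removed the black mark lies at -0.026, and the dots lie 0.12 to 0.21 above it. On the right complex III (green) is at the right end. Complex IV (orange) is at the left end except where the trend of length and level is removed.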

How the data were processed

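The authors deposited 2 gene-by-library matrices of the same 4 libraries (2 Ctrl, 2 WC1), which were made from poly(A) RNA with a directional kit. The deposited CPM signal was proportional to reads but scaled per library by the authors, with columns summing to 97.6% to 105% of what unscaled CPM gives. The deposited TPM values were length-corrected by the authors. fastp, HISAT2, StringTie and mm10 are named in the submitters' processing notes, with versions, annotation and strand setting not given in the sources used here. Whole reads were recovered from the CPM signal (100% of values whole to within 0.01 read).

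Genes that reached 0.5 CPM in 2 or more libraries were tested with limma 3.58.1 (R 4.3.3), with a variance trend, on log2(CPM + 1). This scale understates the change of low genes. P-values were two-sided and Benjamini-Hochberg adjusted over all 14106 genes, with a threshold of 0.05. edgeR 4.0.16 (quasi-likelihood) and DESeq2 1.42.0 were run on the recovered reads as alternatives, among other scalings, filters and pseudocounts. Scripts were tested on simulated data. Transcript length was taken relative to the median gene, from the ratio of CPM to TPM. Shared 50-base stretches were counted in GENCODE M21 transcripts.

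The members and gene lists were chosen with earlier results of these data known. Genes described by name were every called member, the 2 members with the highest and the 2 with the lowest fold change in each complex, the catalytic core genes, isoform pairs and, from other lists, the called genes with the smallest p (at most 3 per direction). Others are said to be named after their values were seen, or are given by value only. The individual values of 1 tested gene are not reported here, though it counts in the totals.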

Additional observations from a re-analysis of the deposited data

How the results depend on the processing

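Counting error is widest for the lowest genes tested, such as Cox6b2, which rested on 64 to 110 reads a library. Against 1 gene called higher and 3 called lower, the counts higher and lower were 9 and 0 with TPM and 8 and 0 with the trend of length and level removed. They were 2 and 2 with median-of-ratios scaling (10.4% and 7.81% of all genes), 2 and 1 with plain CPM (12.1% and 5.91%) and 2 and 1 with quantile normalization (9.46% and 7.51%). They were 1 and 1 without a filter (4.35% and 2.93%), 1 and 1 with edgeR, and 6 and 7 with DESeq2. The count lower of 0 goes with 2 and 0 lower at an unadjusted p of 0.05 with TPM and with the trend of length and level removed. With the replicate block, which pairs equal numbers, they were 2 and 5 (12.5% and 10.6% of all genes). No label says that equal numbers pair the libraries, and the replicate differences of the groups correlated at r = 0.19 over 14106 genes. With a library left out, where the lone library is taken to vary as the other group does, counts ran from 0 to 9 higher and from 0 to 10 lower. They were 0 and 0 without Ctrl 1 or without Ctrl 2 (2 and 1, and 2 and 6, at an unadjusted limma p of 0.05), and 9 and 10 without WC1 1.

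Medians of all members, I, III, IV and V were 0.11, 0.12, 0.17, 0.054 and 0.10 with TPM, and 0.043, 0.053, 0.10, 0.0055 and 0.039 with plain CPM. They were 0.13, 0.15, 0.18, 0.097 and 0.089 with the trend of length and level removed. With quantile normalization they were 0.0067 (all), 0.0043 (I), 0.083 (III) and 0.046 (V). The median of all members was -0.012 with median-of-ratios scaling, -0.012 with edgeR and -0.011 with DESeq2, and that of complex I was -0.0031, -0.0036 and -0.0032. With Ndufa4 moved and the tissue-restricted isoforms left out, complex IV had -0.14. With a library left out the medians ran from -0.037 to 0.0090 (all), -0.014 to 0.018 (I), 0.0039 to 0.041 (III), -0.16 to -0.030 (IV, the lowest without Ctrl 2) and -0.044 to -0.014 (V, the highest without Ctrl 1). Over 684 values of 43 named genes, 593 kept their direction and side of the threshold, 55 lost a call, 23 gained one, 13 changed sign while not called and 0 changed sign while called. The causes of these changes were not tested.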
